A study of Arabidopsis thaliana with 6 samples.

Results

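The comparison described here set 2 arrays of Arabidopsis thaliana Col-0 seedlings carrying 35S:FLAG-SUB1A (SUB1A) against 2 arrays of untransformed Col-0 wild type (WT). It used every probe set of the ATH1 array except the spike-in and quality controls, 22746 in all, and 4 of the 6 arrays of the series. The other 2 arrays carried 35S:FLAG-SUB1C (SUB1C), and they entered the fit to share the estimate of spread and to test whether the SUB1A line differed from another rice transgene. All seedlings were whole, untreated and 7 d old, had been stratified for 3 d, grew on Murashige-Skoog agar with sucrose at 23 °C, were lit for 16 h a day and were harvested at midday.

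SUB1A is a rice transcription factor of the ethylene response factor (ERF) family. In rice it is known for submergence tolerance, where it restrains shoot elongation and carbohydrate use while plants are under water, and it has also been tied to survival of drying after the water recedes. The 35S promoter drives a transgene in most cells at all times, so these seedlings expressed the factor without flooding. The labels list no line with an empty vector and do not give the number of independent transgenic lines, so the transgene cannot be told apart from other differences between the lines. The rice transgene itself was not analysed here.

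Expression is given as log2 values, and each change is the SUB1A mean minus the WT mean with its standard error (SE) from a limma fit across all probe sets, n = 2 arrays a group. "Rose", "fell", "higher" and "lower" are used of genes past a Benjamini-Hochberg adjusted p of 0.05 in that fit. Across probe sets the 2 SUB1A arrays had a correlation of 0.998 and the 2 WT arrays of 0.998, against 0.989 to 0.992 between SUB1A and WT arrays. Probe sets are not independent replicates. With 2 arrays a group the number of arrays limits the precision, and the p-values measure the spread between these arrays. Of 59 genes listed as markers of seedling cell types, 5 were found by name among probe sets with 1 listed gene. Others may have been measured under a locus identifier or another name. RCA, the Rubisco activase of green cells, stood at 14.62 in SUB1A and 14.68 in WT, and PYK10, an abundant root beta-glucosidase, at 14.18 in SUB1A and 14.07 in WT. Of the other 3, FMA, of guard cells, fell by 0.61, and a pair of root hair expansins, EXPA7 and EXPA18, rose by 0.29. The part of tissue proportions in the changes below was not tested.

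Of the 22746 probe sets, 2154 were higher in SUB1A than in WT, or 9.47%, and 2452 were lower, or 10.8%. A change of at least 2-fold was rarer and leaned the other way, with 183 probe sets higher (0.805%) and 100 lower (0.44%). Most changes were small: the median absolute log2 change was 0.387 among the higher and 0.381 among the lower probe sets. The total of 4606 calls, 20.2% of the probe sets, was 2701 without SUB1A replicate 1 and 2871 without WT replicate 1. Probe sets higher at 2-fold numbered 166 to 221 when any of the 4 arrays was left out, and those lower at 2-fold 78 to 138.

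At the median, the 183 probe sets that rose at least 2-fold lay below the level of all probe sets in WT and above it in SUB1A. They had a median level of 8.39 in SUB1A and 6.57 in WT, against a WT median of 7.62 over all probe sets tested. Of the 183, 109 had a WT mean under 7, or 59.6% against 41.9% of all probe sets, and 4 had a WT mean of 11 or more. The 100 falls of at least 2-fold had a median of 7.39 in SUB1A and 8.61 in WT, and 10 of the 100 had a WT mean under 7. In SUB1A the mean was under 7 for 30 of the 183 rises and 42 of the 100 falls. Selecting rises favours low WT values and selecting falls favours high ones, so these WT levels are no separate result. Among probe sets with a mean of 11 or more over the 6 arrays, 10.2% were higher and 13.9% lower, while below a mean of 5 the shares were 2.11% and 0.802%. From a mean of 7 upwards lower calls outnumbered higher calls in each band.

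**Figure D1:**
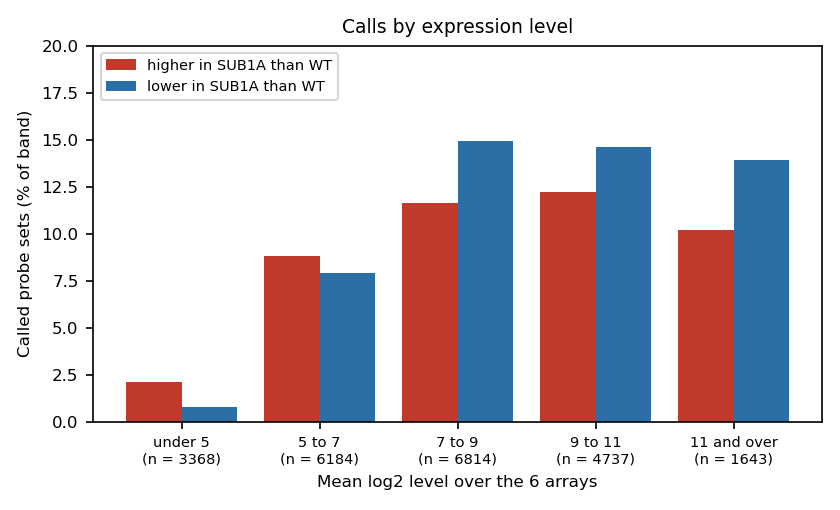
Share of probe sets called higher (red) and lower (blue) in SUB1A than in WT, in percent of the probe sets of each band of mean log2 level over the 6 arrays. The lower calls reach 14.9% in the band from 7 to 9, and both shares are smallest under 5.

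A single listed gene was available for 13513 probe sets, which gave 13356 genes after the brightest probe set of each gene was kept. Of these, 1088 were higher (8.15%) and 1283 lower (9.61%), and the median change was 0.01. Leaving out SUB1A replicate 1 gave 611 higher and 741 lower genes, leaving out WT replicate 1 gave 664 and 776, and leaving out SUB1A replicate 2 gave 709 higher. The tables gave a name beyond the locus identifier to 1683 genes, and 978 were placed in 66 functional classes by name. The other 11673 had an identifier only, so family members among them could be missed. The measured genes of a class are those found by name, and its counts do not describe a whole family. A gene can belong to several classes, so their counts are not separate. Among the 978, 127 were higher (13%) and 152 lower (15.5%), 28.5% in all, against 17.8% of all genes. Fewer of them were dim: 105 of the 978 had a mean under 5, against 2457 of the 13356. The SUB1A and WT arrays did not overlap for 56.7% of all genes, so a lack of overlap alone marks little. It held for all 2154 higher and all 2452 lower probe sets, so remarks below that arrays lay apart add nothing to a call. Each class is read below against the 8.15% and 9.61% of all genes, as a description only, since the classes were drawn up with results of these data known. A class near 13% higher or 15.5% lower does not stand out among classified genes.

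The 8 largest rises among named and unnamed loci were M17, AT3G02480, AT3G15670, BGLU19, AT1G35710, AT3G47380, LEA18 and AT5G03350, between 2.56 and 4.16. AT3G02480 measured 10.34 and 10.31 on the SUB1A arrays and 6.81 and 6.70 on the WT arrays, a change of 3.57 ± 0.07 (adjusted p = 1.7e-07). AT5G03350 was the brightest of the 8, with 12.47 and 12.61 in SUB1A and 9.87 and 10.09 in WT. With the same limit the 8 largest falls were AT1G66100, THI2.2, AT1G26250, AT4G12500, PDF1.2b, AT3G54040, AT5G37990 and EXPA8, between -2.54 and -1.83. AT1G66100 measured 9.04 and 9.21 in SUB1A and 11.76 and 11.56 in WT (change -2.54 ± 0.09, adjusted p = 2.13e-06). The tables used here give the loci known only by identifier no function.

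**Figure D2:**
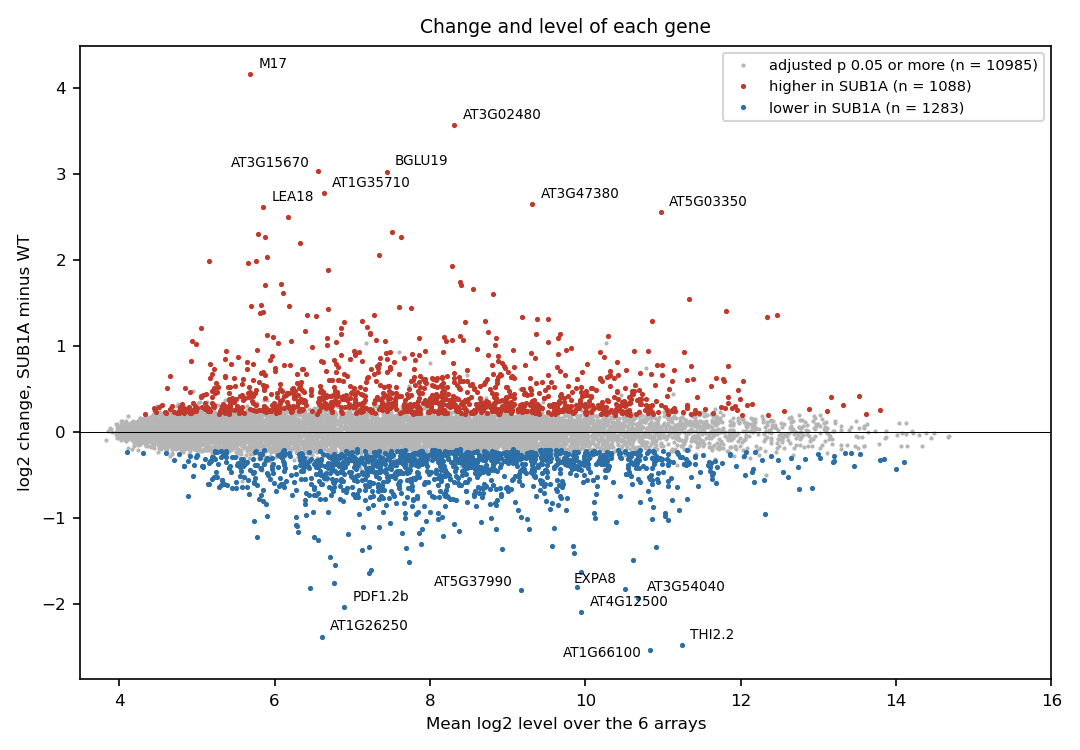
Change (log2, SUB1A minus WT) against mean log2 level over the 6 arrays for each of 13356 genes, with genes higher in SUB1A in red (n = 1088), lower in blue (n = 1283) and the rest in grey. The 8 largest rises and 8 largest falls are named, and M17 lies highest at 4.16.

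Some changes of this size lay at high expression. The 5 brightest genes that rose at least 2-fold were AT2G25510, AT3G22240, AT2G43590, AT3G18280 and AT5G03350. AT2G25510 stood at 13.23 and 13.34 in SUB1A and 11.90 and 11.93 in WT, a change of 1.37 ± 0.06 or 2.58-fold. The 5 brightest that fell at least 2-fold were THI2.2, BCAT4, AT1G62510, EXPB3 and AT1G66100. AT1G62510 stood at 10.04 and 10.06 in SUB1A and 11.50 and 11.28 in WT (-1.33 ± 0.09).

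**Figure D3:**
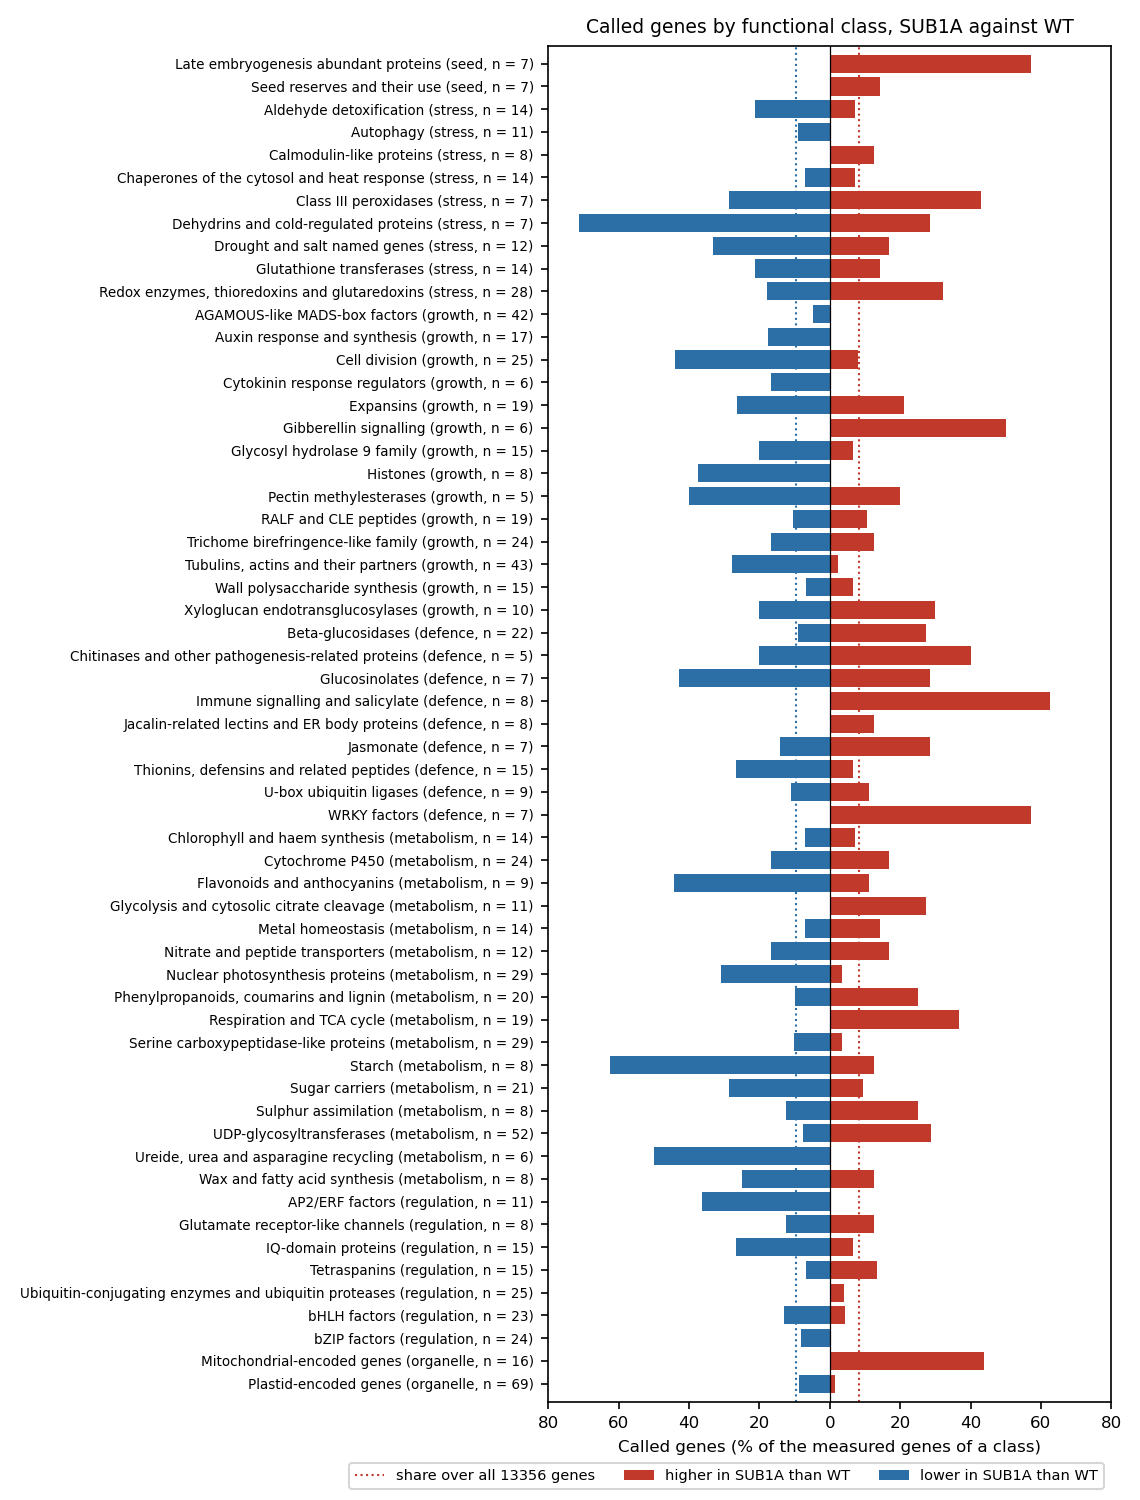
Share of the measured genes of each class that were higher (red, right) or lower (blue, left) in SUB1A than in WT, for classes with at least 5 measured genes and at least 1 called, ordered by group of classes. Dotted lines mark 8.15% and 9.61%, the shares over all 13356 genes.

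Seed-type genes rose in part, and none of the 18 measured in 3 classes fell. Late embryogenesis abundant (LEA) proteins protect cell contents during drying and accumulate in maturing seeds. Of 7 measured genes in the LEA class 4 rose, with a class median of 1.1 against 0.01 over all genes. That class left out the dehydrin and cold-regulated genes described below, of which 5 of 7 fell and 2 rose, so it is not the whole family. M17, a LEA gene of maturing embryos, had 8.18 and 8.43 in SUB1A and 4.00 and 4.30 in WT, where the lowest values of the arrays were 3.76 to 3.85. Its change was 4.16 ± 0.11, or 17.9-fold (adjusted p = 7.39e-07), and with WT near the bottom of the scale the true ratio may be larger.

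LEA18 had 7.25 and 7.66 in SUB1A and 4.80 and 4.87 in WT, a rise of 2.62 ± 0.14. AtLEA4-1 had 6.73 and 7.08 in SUB1A and 4.95 and 4.91 in WT, a rise of 1.97 ± 0.11. LEA4-5, of the same LEA group as AtLEA4-1, had 7.16 and 7.52 in SUB1A and 6.27 and 6.22 in WT (1.1 ± 0.11). As with every call, the SUB1A and WT arrays did not overlap for these 4. M10, another LEA gene, stood at 5.16 in SUB1A and 5.21 in WT and was not called.

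Vacuolar processing enzymes (VPE) cleave proteins in vacuoles, and beta-VPE is the form known for maturing seed storage proteins. BETA-VPE had 9.50 and 9.67 in SUB1A and 8.05 and 7.79 in WT, a rise of 1.66 ± 0.10 or 3.17-fold. DELTA-VPE, known from the seed coat, had 6.92 and 7.06 in SUB1A and 5.30 and 5.26 in WT (1.71 ± 0.07). The vegetative forms were not called: GAMMA-VPE changed by -0.20 ± 0.07 (adjusted p = 0.0789) and ALPHA-VPE by 0.14 ± 0.11.

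Among 7 genes for seed reserves and their use 1 rose. ICL, the isocitrate lyase of the glyoxylate cycle through which seedlings turn seed oil into sugar, had 8.29 and 8.52 in SUB1A and 6.32 and 6.38 in WT. This was a rise of 2.06 ± 0.14, or 4.16-fold. The oleosin gene OLEO3 (5.20 in SUB1A, 5.16 in WT) and the storage protein gene PAP85 (4.91 and 4.96) lay near the low end of the scale. The oil lipase gene SDP1 changed by 0.26 ± 0.09, with an adjusted p of 0.0737.

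**Figure D4:**
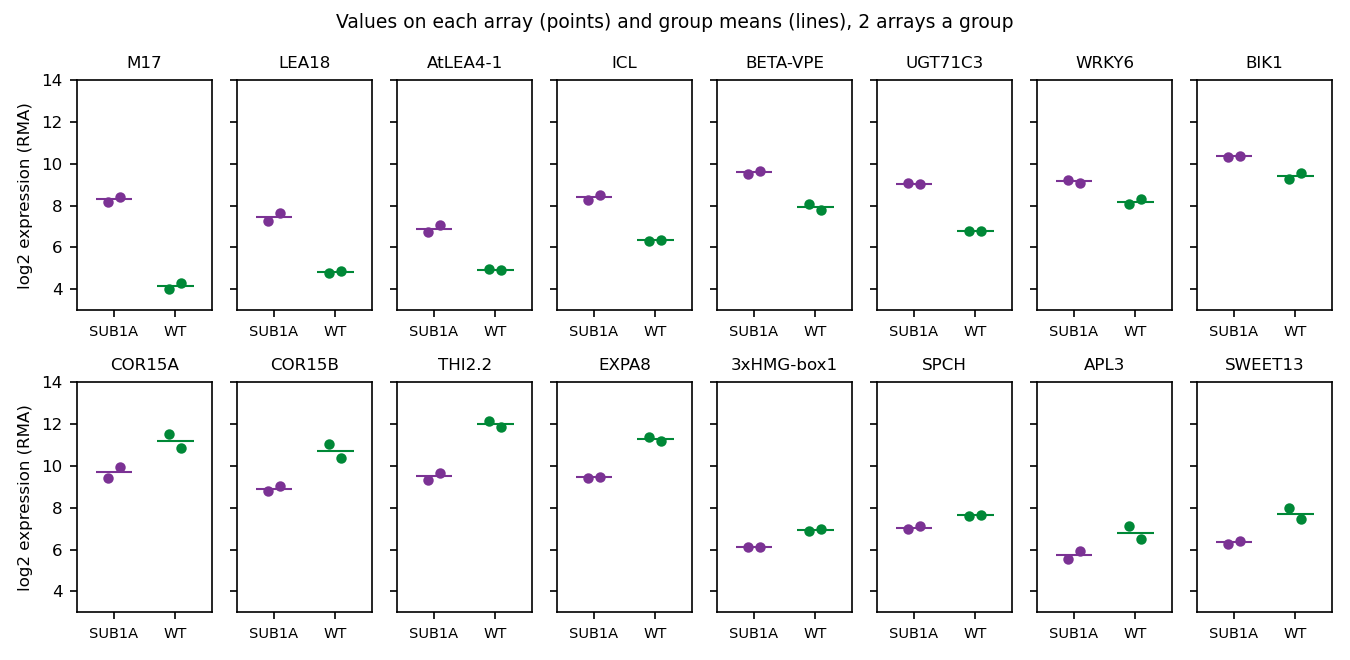
Log2 expression of 16 genes on each SUB1A array (purple points, left) and WT array (green points, right), with lines at the group means of 2 arrays. The 8 genes of the upper row were higher and the 8 of the lower row lower in SUB1A. The points of the groups overlap in no panel, as for every called gene.

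Dehydrin and cold-regulated genes changed in both directions. All 7 measured dehydrin and cold-regulated genes were called, 5 lower and 2 higher, with a median of -0.37. COR15B, which protects chloroplast membranes during freezing, had 8.82 and 9.02 in SUB1A and 11.03 and 10.40 in WT, a fall of 3.48-fold (-1.80 ± 0.18, adjusted p = 0.000321). The related gene COR15A had 9.42 and 9.97 in SUB1A and 11.53 and 10.84 in WT (-1.49 ± 0.23). The SUB1A arrays lay below the WT arrays for both.

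The dehydrin genes COR47 and LTI30 fell by 0.55 and 0.37, and AT1G54410, a dehydrin at 13.24 in SUB1A and 13.48 in WT, by 0.24. The dehydrin gene LEA (AT2G21490) rose by 0.43 ± 0.07 at a low level, 5.34 in SUB1A against 4.91 in WT, and COR27 rose by 0.61 ± 0.15. The count of falls was 3 without SUB1A replicate 1, without SUB1A replicate 2 and without WT replicate 1, and COR15A, COR15B and COR47 were called whichever array was left out. The count of rises was 1 without SUB1A replicate 1 and without WT replicate 1.

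Other stress classes were mixed. Of 12 genes named for drought or salt 2 rose and 4 fell: STZ, a zinc-finger repressor induced by salt, changed by 0.86 ± 0.15, the lipocalin gene TIL by 0.49 ± 0.07, and XERICO, a RING protein that promotes abscisic acid accumulation, by -0.35 ± 0.08. There were 4 rises in that class without WT replicate 2, and 2 falls without SUB1A replicate 2 or WT replicate 1. Of 14 chaperone genes of the cytosol and heat response 1 rose and 1 fell (0 rose without SUB1A replicate 1), and of 14 endoplasmic reticulum folding genes none was called. Of 11 autophagy genes 1 was called, ATG8C at -0.25, and only the fit without SUB1A replicate 2 kept it among those that left out an array. Of 14 genes that remove aldehydes 3 fell and 1 rose. ALDH11A3 fell by 0.59 ± 0.08 and ALDH7B4 rose by 0.38 ± 0.06. In that class 1 gene fell without SUB1A replicate 1 or SUB1A replicate 2, and 2 rose without WT replicate 2.

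Class III peroxidases, which oxidise phenolics in the cell wall, gave 3 rises and 2 falls among 7 genes. PRX52 had 6.51 and 7.00 in SUB1A and 5.26 and 5.44 in WT (1.40 ± 0.14), and AT2G41480 had 8.47 and 8.26 in SUB1A and 6.91 and 6.90 in WT (1.46 ± 0.10). PRXR1, at 13.77 in SUB1A and 14.20 in WT, fell by 0.43. Glutathione transferases, which conjugate toxic compounds, had 2 rises and 3 falls among 14, led by GSTU25 at 0.66 ± 0.10 and GSTU18 at -0.68 ± 0.07. GSTU22 was the other rise, and the count of rises was 1 without WT replicate 2.

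Redox enzymes had 9 rises and 5 falls among 28 genes. The thylakoid ascorbate peroxidase gene TAPX fell by 0.50 ± 0.07, with 10.59 and 10.58 in SUB1A and 11.14 and 11.02 in WT. The stromal form SAPX rose by 0.30 ± 0.07 and the glutaredoxin gene GRX480 by 0.61 ± 0.06. Most rises in this class were near the threshold: leaving out SUB1A replicate 1 left 1 rise, leaving out SUB1A replicate 2 or WT replicate 1 left 3, and leaving out WT replicate 2 left 4. The falls numbered 3 without SUB1A replicate 2 and without WT replicate 1.

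Among growth genes, those of cell division were often lower. Of 25 measured genes 11 fell (44.0%) and 2 rose, with a median of -0.19. The chromosome-binding mitotic proteins 3xHMG-box1 and 3xHMG-box2 had the largest falls. 3xHMG-box1 had 6.12 and 6.11 in SUB1A and 6.90 and 7.00 in WT (-0.84 ± 0.06), and 3xHMG-box2 had 9.19 and 9.14 in SUB1A and 9.93 and 9.99 in WT (-0.80 ± 0.07). In each case the SUB1A arrays lay below both WT arrays.

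KINESIN-12B, a motor of the plate that divides plant cells, fell by 0.52 ± 0.09. All 3 Aurora kinase genes, which act in mitosis, fell, AUR1 by 0.27, AUR2 by 0.34 and AUR3 by 0.33. The remaining falls, given to account for the class, were those of ICU2, TOPII, BUBR1, BUB3.1 and BUB3.2, between -0.43 and -0.26. FBL17, an F-box protein that removes inhibitors of the cell cycle, rose by 0.52 ± 0.06 and CDC27a, a subunit of the anaphase-promoting complex, by 0.35 ± 0.07. Without SUB1A replicate 1 there were 6 falls and 1 rise, and without WT replicate 2 there were 6 falls.

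Of 8 histone genes 3 fell and none rose, led by the linker histone gene HIS1-3, at 5.81 in SUB1A and 6.42 in WT (-0.60 ± 0.12). The histone falls numbered 1 without SUB1A replicate 1 and without WT replicate 1. Genes of tubulins, actins and their partners gave 12 falls and 1 rise among 43. NET1A, which binds actin filaments, fell by 0.61 ± 0.12 and SP1L2, a partner of microtubules, by 0.60 ± 0.09, while the actin-binding gene NET3A rose by 0.60 ± 0.06. The tubulin genes TUB6 and TUB7 fell by 0.35 and 0.32. The 12 falls were 6 without SUB1A replicate 1 and 6 without WT replicate 1, and there were 2 rises without WT replicate 2.

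Wall-loosening genes moved in both directions. Expansins, which let walls extend, had 4 rises and 5 falls among 19 genes, and the falls were larger. EXPA8 had 9.41 and 9.49 in SUB1A and 11.38 and 11.18 in WT, a fall of 3.55-fold (-1.83 ± 0.08, adjusted p = 7.51e-06). EXPB3 had 10.08 and 10.40 in SUB1A and 11.31 and 11.18 in WT (-1.01 ± 0.10), and EXPA15 fell by 0.89 ± 0.09. The rises were EXLA1 at 0.52 ± 0.07, EXPA4 at 0.38 ± 0.10 and the root hair genes EXPA7 and EXPA18, both at 0.29 ± 0.08. The 4 rises were 1 without SUB1A replicate 2 and without WT replicate 2.

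Xyloglucan endotransglucosylases, which cut and rejoin wall polymers, had 3 rises and 2 falls among 10. XTH32 had 9.56 and 9.58 in SUB1A and 10.48 and 10.53 in WT (-0.94 ± 0.07), and XTH20 changed by -0.66 ± 0.09. XTH18 had 8.16 and 8.06 in SUB1A and 7.40 and 7.50 in WT (0.66 ± 0.07), and XTH19 and EXGT-A3 rose by 0.63 and 0.41. Each of these 5 calls held whichever array was left out. The pectin methylesterase gene PME61 fell by 1.64 ± 0.14 and ATPMEPCRB rose by 1.05 ± 0.25, with no call without SUB1A replicate 1 or without SUB1A replicate 2.

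Hormone classes were small. Of 17 auxin genes 3 fell and none rose. GH3.3, an enzyme that conjugates auxin to amino acids, averaged 8.69 in SUB1A and 10.01 in WT (-1.32 ± 0.17), and IAA29 and GH3.17 fell by 0.48 and 0.34. Of 6 gibberellin signalling genes 3 rose: the receptors GID1A (0.29 ± 0.06) and GID1B (0.38 ± 0.07), and SLY1 (0.51 ± 0.08), the F-box protein that targets DELLA repressors for breakdown. The third receptor gene GID1C changed by -0.12 and was not called.

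Of 4 stomatal regulators 3 fell. SPCH, which starts the stomatal lineage, had 6.98 and 7.11 in SUB1A and 7.62 and 7.67 in WT (-0.60 ± 0.07). FMA (FAMA), which completes guard cell identity, had 7.33 and 7.23 in SUB1A and 7.96 and 7.82 in WT (-0.61 ± 0.07). STOMAGEN, a peptide that promotes stomata, fell by 0.43 ± 0.06, and MUTE, which acts between SPCH and FAMA, stood at 5.38 in SUB1A and 5.36 in WT and was not called. These 4 were put together after their values were seen. In whole seedlings fewer cells of a type and less RNA per cell cannot be told apart.

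In the classes grouped as defence 24 of 86 genes rose and 11 fell, and these classes differed in their counts. The 86 took in all 22 beta-glucosidases with their 6 rises, among them BGLU45 and BGLU46, glucosidases of lignin precursors. Of 15 thionin and defensin genes 4 fell and 1 rose. THI2.2, a thionin, had 9.35 and 9.69 in SUB1A and 12.14 and 11.85 in WT, a fall of 5.56-fold (-2.48 ± 0.12). The defensin gene PDF1.2b had 5.87 and 5.77 in SUB1A and 7.08 and 8.63 in WT (-2.03 ± 0.39, adjusted p = 0.0074), where the WT arrays were far apart and the probe set can take up transcripts of similar genes. PDF1.2 changed by -0.56 ± 0.27 and was not called (adjusted p = 0.194). The falls numbered 2 without SUB1A replicate 1, SUB1A replicate 2 or WT replicate 2, and the rise of THI2.1 was not called when any of the 4 arrays was left out.

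Of 7 WRKY genes found by name, from a family of transcription factors active in defence and senescence, 4 rose and none fell. WRKY53 had 6.64 and 6.62 in SUB1A and 5.36 and 5.83 in WT (1.04 ± 0.13), and WRKY6 had 9.21 and 9.09 in SUB1A and 8.05 and 8.33 in WT (0.96 ± 0.10). WRKY22 rose by 0.51. WRKY47 rose by 0.62 ± 0.18 and lay near the threshold (adjusted p = 0.0407), with 8.37 and 8.22 in SUB1A and 7.35 and 8.01 in WT. As with every call, the SUB1A arrays lay apart from the WT arrays for all 4.

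Of 8 genes for immune signalling and salicylate 5 rose and none fell. BIK1, a kinase that relays signals of pattern receptors, had 10.34 and 10.38 in SUB1A and 9.28 and 9.53 in WT (0.96 ± 0.09). UGT76B1, a glycosyltransferase that acts on salicylate, had 10.26 and 10.05 in SUB1A and 9.33 and 9.17 in WT (0.90 ± 0.09). GRX480, counted among the redox enzymes too, rose by 0.61, EFR, the receptor of a bacterial elongation factor, by 0.43 and PIA1 by 0.39. The count was 3 without SUB1A replicate 1.

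The chitinase genes ChiC and CHI rose by 1.32 ± 0.08 and 0.88 ± 0.07, and the osmotin gene OSM34 fell by 0.52 ± 0.06. Beta-glucosidases, which release stored defence compounds and hormones, had 6 rises and 2 falls among 22. BGLU19 had 9.40 and 8.99 in SUB1A and 6.25 and 6.09 in WT, a rise of 8.16-fold (3.03 ± 0.20), while BGLU28 and BGLU33 fell by 0.83 and 0.74. Without SUB1A replicate 1 there was 1 fall in that class. Of 7 glucosinolate genes 3 fell and 2 rose. BCAT4, which starts the lengthening of methionine, fell by 1.02 ± 0.07 (10.48 and 10.61 in SUB1A, 11.62 and 11.51 in WT) and the transporter gene GTR2 rose by 0.67 ± 0.06. BGLU28, also of this class, and AOP1 were the other falls and UGT74B1 the other rise. In this class there was 1 fall without SUB1A replicate 1, and 1 rise without SUB1A replicate 2, WT replicate 1 or WT replicate 2. Of 9 U-box ubiquitin ligases 1 rose and 1 fell.

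**Figure D5:**
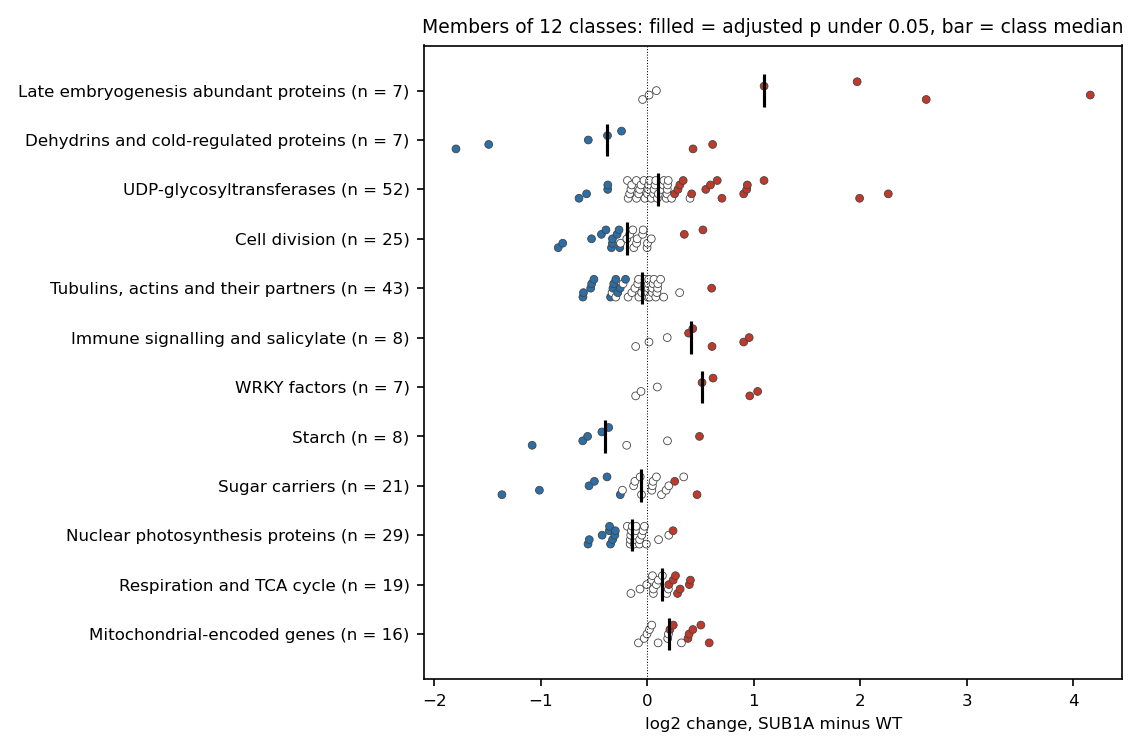
Change (log2, SUB1A minus WT) of each measured member of 12 classes, with members called higher filled red, called lower filled blue and the rest open, and a bar at the class median. The median is highest for the LEA class, which leaves out dehydrins, at 1.1, and lowest for the starch genes, at -0.39.

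Part of the photosynthesis genes were lower, by small amounts. Of 29 nuclear genes of the photosynthetic apparatus 9 fell and 1 rose, and the median change of the class was -0.14. The median level of the class was high, 11.35 in SUB1A and 11.78 in WT, but not every fall lay there. NdhN and NdhS, subunits of the complex that cycles electrons round photosystem I, fell by 0.56 ± 0.08 and 0.55 ± 0.08. LHCB4.3 had the next largest fall, at 8.51 in SUB1A and 8.93 in WT (-0.42 ± 0.11). LHCB4.2, an antenna protein of photosystem II, stood at 13.86 and 13.98 in SUB1A and 14.33 and 14.20 in WT (-0.35 ± 0.07). The falls numbered 5 without SUB1A replicate 1 and 4 without WT replicate 1, and the rise, of TAAC, was lost without SUB1A replicate 1, SUB1A replicate 2 or WT replicate 1.

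Among 4 genes of the Calvin cycle and photorespiration 3 fell. HPR, a hydroxypyruvate reductase, fell by 0.39 ± 0.07, SBPASE by 0.29 ± 0.07 and PRK by 0.26 ± 0.07, each with a WT level above 13 on both arrays. RCA changed by -0.06. HPR alone was called whichever array was left out. Of 14 genes of chlorophyll and haem synthesis 1 rose, CHLI2, and 1 fell, PORB. The first call was lost without SUB1A replicate 1, SUB1A replicate 2 or WT replicate 2, and the other without SUB1A replicate 2 or WT replicate 1.

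Of 8 measured starch genes 5 fell and 1 rose, with a median of -0.39. APL3, a subunit of the enzyme that makes ADP-glucose, had 5.54 and 5.92 in SUB1A and 7.11 and 6.51 in WT (-1.08 ± 0.18). Its relative APL4 fell by 0.56 ± 0.09, QQS, an orphan gene known to affect starch content, by 0.61 ± 0.06, DPE1 by 0.43 and the branching enzyme gene SBE2.2 by 0.36. AMY1, a secreted alpha-amylase, rose by 0.49 ± 0.09, with 6.21 and 6.14 in SUB1A and 5.74 and 5.63 in WT.

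Sugar carriers had 6 falls and 2 rises among 21 genes. SWEET proteins let sugars leave cells. SWEET13 had 6.27 and 6.43 in SUB1A and 7.97 and 7.47 in WT (-1.37 ± 0.14), and SWEET1 had 7.68 and 7.52 in SUB1A and 8.61 and 8.62 in WT (-1.01 ± 0.08). SAG29 fell by 0.55 and TMT3, a vacuolar sugar importer, rose by 0.47. The 2 rises were 1 without SUB1A replicate 2, WT replicate 1 or WT replicate 2.

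Of 19 genes of respiration and the citrate cycle 7 rose and none fell, each by less than 1.4-fold. The largest was cICDH, a cytosolic isocitrate dehydrogenase, with 13.43 and 13.33 in SUB1A and 12.92 and 13.03 in WT (0.40 ± 0.07). NDB2, an alternative NADH dehydrogenase of mitochondria, rose by 0.39 ± 0.08. These calls lay close to the threshold: without SUB1A replicate 1, SUB1A replicate 2 or WT replicate 1 there were 2, and cICDH alone was called in every case. In glycolysis and citrate cleavage 3 of 11 rose, PGM by 0.63 ± 0.12, ACLA-3 by 0.44 ± 0.06 and TPI by 0.21 ± 0.06, and 1 did without SUB1A replicate 1.

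UDP-glycosyltransferases (UGT) attach sugars to hormones and secondary metabolites. Of 52 measured genes 15 rose (28.8%) and 4 fell, and 9 of the rises held whichever array was left out. UGT71C3 had 9.06 and 9.03 in SUB1A and 6.77 and 6.79 in WT, a rise of 4.80-fold (2.26 ± 0.06, adjusted p = 7.39e-07). UGT76E12 had 7.15 and 6.79 in SUB1A and 4.84 and 5.12 in WT (1.99 ± 0.13), and UGT87A2 rose by 1.1 ± 0.15. UGT85A2 and UGT73B4 rose by 0.94 and 0.93, with SUB1A above WT on every array.

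Genes of flavonoids and anthocyanins, the red and ultraviolet-absorbing pigments, had 4 falls and 1 rise among 9. DFR, a reductase needed for anthocyanins, had 6.23 and 5.97 in SUB1A and 6.92 and 6.85 in WT (-0.79 ± 0.10). CHIL fell by 0.78 ± 0.09 and the anthocyanin glycosyltransferase genes UF3GT and UGT78D2, which also belong to the UGT class, by 0.64 and 0.37. BAN, an enzyme of seed coat tannins, rose by 0.41 ± 0.06 at a low level, 5.85 in SUB1A and 5.44 in WT. These 5 were called whichever array was left out.

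Genes of phenylpropanoids, the precursors of lignin and coumarins, had 5 rises and 2 falls among 20. BGLU45 and BGLU46, glucosidases of lignin precursors also counted among the beta-glucosidases, rose by 0.66 ± 0.10 and 0.51 ± 0.09. CCR2, a cinnamoyl-CoA reductase, rose by 0.46 ± 0.10. AT3G13610 and UGT84A1 fell by 0.54 and 0.37. The rises were 3 without SUB1A replicate 1, SUB1A replicate 2 or WT replicate 2, and the falls 1 without SUB1A replicate 1 or WT replicate 1.

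Cytochrome P450 genes split evenly, with 4 rises and 4 falls among 24, all of the CYP71B family. CYP71B23 rose by 0.89 ± 0.09, and CYP71B35 and CYP71B37 fell by 0.68 and 0.67. The 4 rises were 2 without SUB1A replicate 2. Of 6 genes for recycling nitrogen from ureides, urea and asparagine 3 fell, ALN and AAH, which break down allantoin and allantoate, by 0.58 ± 0.07 and 0.48 ± 0.09, and ASPGB1 by 0.32.

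Of 11 other AP2/ERF factors, the superfamily to which SUB1A belongs, 4 fell and none rose. TINY (tny), a factor that restrains growth when overexpressed, had 8.66 and 8.48 in SUB1A and 9.47 and 9.30 in WT (-0.81 ± 0.09), and TINY2 fell by 0.62 ± 0.11. SNZ, a repressor of flowering, fell by 0.45 and AT5G61590 by 0.41. Of 24 bZIP factors 2 fell, and of 42 AGAMOUS-like factors 2 fell, both shares below that of all genes. Each of these counts was 1 without WT replicate 1, that of bZIP factors also without SUB1A replicate 1 or WT replicate 2, and that of AGAMOUS-like factors also without SUB1A replicate 2. No gene was called among 9 for the breakdown of branched-chain amino acids and lysine, 7 cation/proton exchangers and 17 factors of organelle RNA processing.

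Organelle genomes differed. Of 69 plastid genes 6 fell and 1 rose, near or under the shares of all genes. The 6 that fell, rpoA, rpl36, rpl14, rpl16, rps3 and rpl22, lay next to each other among the measured plastid genes in the annotation order of RefSeq, and encode a polymerase subunit and 5 ribosomal proteins. rpl16 had 10.56 and 10.57 in SUB1A and 11.40 and 11.29 in WT (-0.78 ± 0.12). For rpl22 the SUB1A arrays were further apart, at 11.62 and 12.22, against 12.82 and 12.91 in WT. In the direct comparison with SUB1C the 6 differed by -0.22 to -0.01 and were not called. The next gene, rps19, changed by -0.49 ± 0.18 (adjusted p = 0.0875), and rbcL, the large subunit of Rubisco, rose by 0.47 ± 0.09. There were 3 falls without WT replicate 2 and 2 rises without SUB1A replicate 2 or WT replicate 1. Of 16 mitochondrial genes 7 rose and none fell, led by cox2 (6.54 and 6.66 in SUB1A, 6.02 and 6.03 in WT) and nad9. The 7 were 4 without SUB1A replicate 2 or WT replicate 1, and the 3' labelling kit primes on poly(A) tails, which organelle transcripts mostly lack. The part of that step in these values was not tested.

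The SUB1A line was also compared directly with the SUB1C line, as the test of whether a change differed between the lines. Over all genes 629 were higher in SUB1A than in SUB1C (4.71%) and 747 lower (5.59%). The 4 genes of the LEA class that were above WT were also higher in SUB1A than in SUB1C, M17 by 3.70 and LEA18 by 2.21. So were BETA-VPE, DELTA-VPE and ICL. Of the 52 UGT genes 13 were higher and 3 lower than in SUB1C. Of the 8 immune signalling genes 5 were higher and none lower than in SUB1C, among them BIK1 by 0.88 and UGT76B1 by 0.64. Of the 7 WRKY genes 3 were higher and none lower, WRKY53 by 0.73, WRKY6 by 0.67 and WRKY22 by 0.60.

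Of the 7 dehydrin and cold-regulated genes 4 were lower than in SUB1C and 2 higher. COR15A, COR15B and COR47 differed by -1.26, -1.13 and -0.67, and COR27 by 0.65. The thionin gene THI2.2 was lower, at -2.69. Of the 19 expansin genes 7 were lower and none higher. They included the 5 that fell against WT, with EXPA8 at -1.36, EXPB3 at -0.85 and EXPA15 at -0.78. The other two were EXPA7 and EXPA18, higher than in WT by 0.29 and lower than in SUB1C, at -0.49 and -0.46.

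The counts of cell division, photosynthesis and respiration genes were small. Of the 25 cell division genes 2 were higher in SUB1A than in SUB1C and none was lower, and 3xHMG-box1 differed by 0.01 (adjusted p = 0.94). Of the 29 nuclear photosynthesis genes and of the 19 respiration genes 0 were higher, with 0 and 1 lower. Of the 8 starch genes 2 were higher and 1 lower, larger shares than the 4.71% and 5.59% of all genes, in a class of few genes. The lower gene was QQS, which changed by -0.61 against WT and differed by -3.64 from SUB1C.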

How the data were processed

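The values are log2 expression from the deposited series matrix, normalized with RMA per the submitters' processing notes (version not given in the sources used here), after 100 ng of RNA per array was labelled. The matrix has 22810 probe sets, and 64 control probe sets were left out. A limma fit (3.58.1, R 4.3.3) of 3 group means over all 6 arrays gave two-sided tests with Benjamini-Hochberg adjustment over 22746 probe sets and a threshold of 0.05. There were 3 residual degrees of freedom and a prior of 5.37. The files hold no detection calls, so no gene was called absent. Tables and plots used Python 3.11.15, pandas 2.3.3 and matplotlib 3.10.9.

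The probe annotation listed 1 gene for 13513 probe sets, several for 503 and none for 8730, and 13436 of the 13513 matched the RefSeq table of TAIR10.1. The brightest probe set by mean over all arrays stood for a gene. Of 146 genes with several probe sets, 0 had probe sets called in opposite directions. Classes were drawn up from gene names and corrected after the name table was read. The members and lists were chosen with earlier results of these data known.

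Named genes were the 8 largest rises and 8 largest falls, the 5 brightest at 2-fold in each direction, and up to 3 rises and 3 falls per class. All came from probe sets with 1 listed gene, were called and had arrays that did not overlap. Further members are given to account for a class. Data were simulated for SUB1A minus WT over 22746 probe sets, with 50 changed at each size. The share called was 12% for log2 changes of 0.25, 96% for 0.5, 98% for 1 and 100% for 2. There were 16 false calls over all sizes together. The real data had 4606 calls, far more than were changed in the simulation, so these shares may not carry over.

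Alternatives were a replicate block, the SUB1A and WT arrays alone, renewed quantile normalization, median centring, a filter at a mean of 5, trended and robust priors, a threshold of 0.01, averaged probe sets per gene, and leaving out each array.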

Additional observations from a re-analysis of the deposited data

How the results depend on the processing

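Leaving out 1 array at a time gave 2701 to 3961 probe sets called, 1278 to 1849 higher and 1423 to 2112 lower, against 4606, 2154 and 2452 with all arrays. The lone array left in a group was assumed to vary like the other groups. At 2-fold the range was 166 to 221 higher and 78 to 138 lower. By class the ranges were 4 LEA rises throughout, 3 to 4 dehydrin and cold-regulated falls, 6 to 8 cell division falls, 6 to 13 tubulin and actin falls, 3 to 4 WRKY rises, 3 to 6 immune rises, 4 to 9 nuclear photosynthesis falls, 4 to 5 starch falls, 4 to 7 sugar carrier falls, 10 to 12 UGT rises, 2 to 5 respiration rises and 4 to 5 mitochondrial rises. These fits have fewer arrays. An adjusted p of 0.01 left 2344 probe sets. With the replicate block 4473 were called. SUB1A and WT arrays of equal number deviated from their group means with a correlation of -0.01 across probe sets. The labels name no batch, and this value cannot show whether arrays of equal number were handled together. The SUB1A and WT arrays alone gave 3804, and the other settings 4576 to 4985. No setting with all arrays of both groups at 0.05 moved the 12 class counts just given by over 1.5 times. Among other classes, redox rises numbered 4 with the SUB1A and WT arrays fitted alone, a fit with fewer arrays. Of 219 named genes 201 kept their call in that fit and 213 to 218 under each of the other settings with all arrays, and 157 to 183 did when an array was left out. None reversed. Low signal limits M17 and other genes near the bottom of the scale, and 2 arrays a group limit changes under about 0.5.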

Other observations

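Several named genes outside the 66 classes also changed, and these were chosen after their values were seen. Of the NGATHA factors, which shape lateral organs, NGA1 had 7.31 and 7.55 in SUB1A and 8.35 and 8.22 in WT (-0.86 ± 0.09), and NGA2 fell by 0.63 ± 0.06. NGA3 went the other way, with 6.85 and 6.86 in SUB1A and 6.09 and 6.14 in WT (0.74 ± 0.06). TCP15, a factor of leaf growth, fell by 0.86 ± 0.09 and YAB5, a factor of leaf polarity, by 0.65 ± 0.06. LBD16, a factor of lateral root initiation, had 7.78 and 7.86 in SUB1A and 6.52 and 6.52 in WT, a rise of 1.3 ± 0.06.

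TPS-CIN, a terpene synthase, had 6.43 and 7.07 in SUB1A and 8.28 and 8.25 in WT (-1.51 ± 0.17). ATSPS4F, a sucrose phosphate synthase, fell by 0.99 ± 0.11. THE1, a receptor kinase that senses the state of the cell wall, rose by 0.76 ± 0.08. IQD22, of the class of IQ-domain proteins, had 9.67 and 9.42 in SUB1A and 7.77 and 7.84 in WT, a rise of 1.74 ± 0.10, while 4 of the 15 IQ-domain genes fell. Those falls numbered 1 to 2 when an array was left out, and IQD22 was called each time.

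Of the 8730 probe sets with no listed gene 24.5% were called, against 17.7% of those with 1 gene. They included 97 of the 2-fold rises and 42 of the 2-fold falls, with changes between -3.19 and 4.57, and the class counts do not cover them.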
